A study of Mus musculus with 2 samples.

Results

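The chemokine-high neutrophils were 382 of 3825 blood neutrophils of the mouse, out of 5793 cells in all. They were the 10 percent of neutrophils with the highest share of their UMIs (unique molecular identifiers, each of which counts 1 captured transcript) in 4 chemokine genes, Cxcl2, Cxcl3, Ccl3 and Ccl4. Neutrophils were the cells that the authors labelled as such, and the ranking pooled both libraries. Blood myeloid cells were taken from C57BL/6 mice 24 h after the proximal middle cerebral artery had been transiently occluded, a model of ischaemic stroke, and had been sorted as CD11b+ cells, both those with Ly6G and those lacking it. Of the 2 libraries, the one called young was from mice aged 2 to 4 months, and the other was from animals of 18 to 24 months, called aged here, and both had the occlusion, so there was no group without stroke. The authors' labels give no transgene or other treatment. Whether cells of several mice were pooled is not given in the sources used here.

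Neutrophils are the short-lived phagocytes that reach injured tissue first, and they both follow and release chemokines. Cxcl2 and Cxcl3 are CXC chemokines that draw further neutrophils through the receptor Cxcr2, while Ccl3 and Ccl4 are CC chemokines that act on monocytes, natural killer (NK) cells and T cells through receptors such as Ccr1. Transcription of all of them is switched on within minutes to hours by NF-kappaB and AP-1, the factors downstream of Toll-like and interleukin 1 receptors, and their mRNAs are cleared quickly by proteins such as tristetraprolin. Irg1 (Acod1) encodes the enzyme that makes itaconate in activated phagocytes and is often listed with these chemokines.

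Cxcl2 (chromosome 5, 90903871 to 90905938, plus strand) and Cxcl3 (chromosome 5, 90786103 to 90789600, plus strand) lie on the same chromosome in GRCm38. So do Ccl3 (chromosome 11, 83647844 to 83649355, minus strand) and Ccl4 (chromosome 11, 83662584 to 83664683, plus strand), with a gap of 13.2 kb. Irg1 lies on chromosome 14, 103046977 to 103056573. Cxcl2 and Cxcl3 have a gap of 114 kb between them, and their transcripts share an identical run of 157 bases, so reads from that run cannot be assigned to one gene and the split of UMIs between them is uncertain. For Ccl3 and Ccl4 the longest shared run was 9 bases. The stretch from 160 to 41 bases before the RefSeq start is shown (GRCm38.p6, 5′ to 3′ on the gene's strand) for 3 of the chemokines, for Irg1, and for the 2 genes on which the comparisons below turn most, Slc7a11 and Il1b. Capitals mark matches to the kappaB consensus, to the AP-1 motif TGANTCA or to TATAAA on either strand.
Cxcl2, chr5:90903739-90903858, plus strand: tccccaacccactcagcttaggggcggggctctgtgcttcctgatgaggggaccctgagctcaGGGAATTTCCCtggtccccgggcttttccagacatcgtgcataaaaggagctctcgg
Cxcl3, chr5:90785941-90786060, plus strand: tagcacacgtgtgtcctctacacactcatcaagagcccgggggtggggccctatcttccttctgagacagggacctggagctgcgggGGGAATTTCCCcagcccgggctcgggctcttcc
Ccl3, chr11:83649419-83649538, minus strand: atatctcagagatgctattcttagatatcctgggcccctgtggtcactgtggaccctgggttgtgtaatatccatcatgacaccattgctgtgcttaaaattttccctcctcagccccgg
Irg1, chr14:103046852-103046971, plus strand: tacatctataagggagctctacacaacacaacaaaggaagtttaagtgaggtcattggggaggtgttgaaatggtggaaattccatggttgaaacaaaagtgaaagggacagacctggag
Slc7a11, chr3:50443654-50443773, minus strand: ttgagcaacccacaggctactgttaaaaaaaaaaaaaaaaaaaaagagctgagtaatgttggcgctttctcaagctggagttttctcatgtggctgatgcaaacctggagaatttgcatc
Il1b, chr2:129371180-129371299, minus strand: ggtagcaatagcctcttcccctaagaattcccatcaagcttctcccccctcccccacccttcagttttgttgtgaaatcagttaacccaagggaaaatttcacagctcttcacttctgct

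RefSeq held a window of 250 bases before to 50 bases after the start for 6 of the 7 genes looked up. In Cxcl2 the kappaB consensus matched GGGAATTTCC from 97 to 88 bases before the start, and in Cxcl3 it matched the same letters from 73 to 64 bases before it. In both genes the opposite strand matched again 1 base further on. The kappaB consensus was found in 8.46% of the 32851 promoter windows of the same length. TATAAA stood in the windows of Cxcl3, Irg1 and Il1b, outside the printed stretches, and in 13.6% of all windows. TGANTCA was in none of the 6 windows and in 7.81% of all. These are matches of letters in a window and carry no measurement of binding.

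The table held 11691 genes. The young library had 1849 cells and 6440664 UMIs (median 2022 per cell), and the aged library 3944 cells and 13752454 UMIs (median 2219). Of all cell barcodes, 12 occurred in both libraries, among them those of 2 chemokine-high cells. With 1 library per age no test was possible and none was made. All intervals are exact 95% intervals that cover counting error only, not the spread between mice or libraries.

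Chemokine-high cells were the upper end of a continuous range, with no gap between them and the other neutrophils. In the young library 106 of 1144 neutrophils were chemokine-high, 9.27% (Clopper-Pearson interval 7.65% to 11.1%). In the aged library they were 276 of 2681, 10.3% (9.17% to 11.5%). The intervals overlapped, and when every cell was first thinned to 1000 UMIs the shares were 11.1% in young and 9.51% in aged cells, so no order between the ages was found. The median chemokine share was 0.661% of a cell's UMIs in young and 0.616% in aged chemokine-high cells, against 0.0700% and 0.110% in the other neutrophils, values that chose the cells. Of the other neutrophils, 34.0% of young and 19.0% of aged cells had no UMI of the 4 genes. The highest share was 2.44% in a young cell and 3.51% in an aged cell. At the limit, the last 3 cells inside had 8 of 1680, 9 of 1890 and 16 of 3360 UMIs, each 0.476%. The first 3 outside had 7 of 1471 (0.476%), 13 of 2737 (0.475%) and 8 of 1685 UMIs (0.475%), so cells on either side of the limit were nearly the same.

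**Figure D1:**
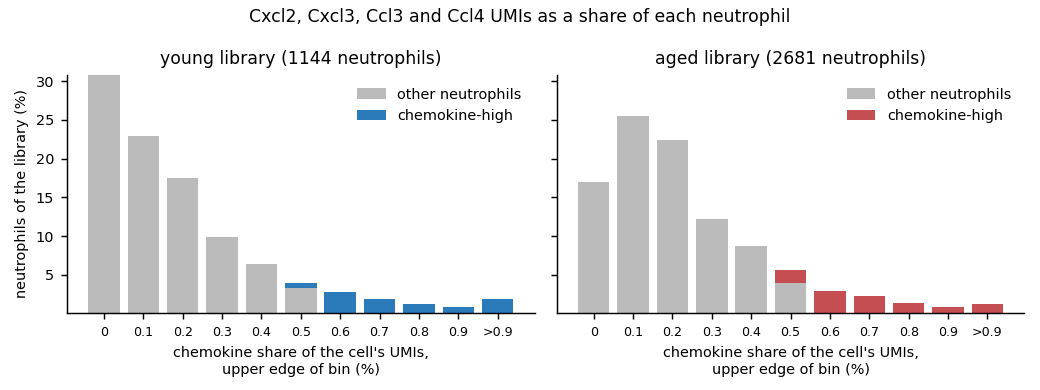
Neutrophils of each library (percent, y axis) by the share of their UMIs in Cxcl2, Cxcl3, Ccl3 and Ccl4 (percent, x axis, upper edge of each bin), with chemokine-high cells coloured. The bars fall off without a gap at the limit near 0.476%, and cells with no chemokine UMI make up 30.9% of young and 17.0% of aged neutrophils.

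Depth was similar in both classes of young neutrophils and a little lower in aged chemokine-high cells. The median was 1632 UMIs in young chemokine-high cells and 1638 in the other young neutrophils, and 1765.5 and 1934 in the aged library. The median mitochondrial share was 0.478% and 0.450% in young and 0.356% and 0.347% in aged cells. At 1000 UMIs per cell, chemokine-high cells had a median of 396.5 genes against 383 in the young library and 351.5 against 333 in the aged library.

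The chosen cells were neutrophils by their markers. Levels are given as CPM, the UMIs of a gene or list scaled to a total of 1000000 UMIs over the cells of a class. All 12 neutrophil markers on the list (among them S100a8, S100a9, Csf3r, Cxcr2 and Ly6g) were detected in chemokine-high cells of both libraries. Together they summed to 305456 CPM in young and 377502 in aged ones. The sums were higher in the other neutrophils, at 338981 and 428165 CPM, which gave ratios of 0.901 and 0.882. The 15 monocyte markers summed to 828 CPM in young and 630 in aged chemokine-high cells, against 919 and 786 in the other neutrophils and 9228 and 9973 in monocytes. The 11 NK markers summed to 49.0 and 18.8 CPM in chemokine-high cells, against 53.4 and 13.9 in other neutrophils and 20277 and 18009 in NK cells. Of these lists, 9 of the 11 NK markers were at 0 UMIs in young and 7 in aged chemokine-high cells, and 2 and 1 of the monocyte markers were. The 7 T cell markers summed to 21.8 CPM in young and 11.3 in aged chemokine-high cells (4 and 6 UMIs), against 21.4 and 12.7 in the other neutrophils, and 5 and 4 of them were at 0. Ncr1 (NK cells), Cd3e (T cells) and Ms4a1 (B cells) were at 0 in both libraries, but they had only 7, 0 and 1 UMIs over all neutrophils. Nkg7 had 3 and 5 UMIs, Gzma 6 and 3, Cd3g 2 and 3, Cd3d 2 and 2 and Cd79a 1 and 1. Ly6d had 3 UMIs in aged chemokine-high cells, 7.21-fold the level of the others (1.06 to 42.6). The basophil and mast cell list was higher, at 926 against 732 CPM in young and 939 against 663 in aged cells. Hdc, which neutrophils express, supplied all 170 of its UMIs in young and 494 of 499 in aged chemokine-high cells. The rest in aged cells were Kit (3 UMIs), Mcpt8 (1) and Cd200r3 (1). Cpa3 and Ms4a2 were at 0, but they had only 1 and 5 UMIs over all neutrophils. The 8 B cell markers summed to 229 against 292 in young and 305 against 244 in aged cells, with 6 and 4 of them at 0, and beyond leaving out cells with monocyte, NK or B marker UMIs, the part of these lists in the results was not tested.

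The CXC ligands came first, and almost all of the chosen signal was Cxcl2. Cxcl2 supplied 93.96% of the chemokine UMIs in young and 89.1% in aged chemokine-high cells, and 372 of the 382 cells had more UMIs of Cxcl2 than of any other of the 4 genes. The other 10 were led by Ccl4. Cxcl2 stood at 7197 CPM in young chemokine-high cells and at 1054 in the other young neutrophils, and at 6164 and 1255 in the aged library. Every chemokine-high cell had at least 1 Cxcl2 UMI, with a median of 11 in both libraries, but so had 62.0% of the other young and 77.6% of the other aged neutrophils. These differences follow from the choice of cells. The label "inflammatory chemokine" therefore describes cells high in Cxcl2, with the other 3 genes in a minority of them.

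Cxcl3, the close relative of Cxcl2, was rarer and differed between the ages. It had 8 UMIs in 5.66% of young chemokine-high cells and 100 UMIs in 17.4% of aged ones, or 43.6 and 188 CPM. The other neutrophils had 5.34 CPM in young and 24.1 in aged cells. Aged over young, Cxcl3 was 4.32-fold (interval 2.11 to 10.3) in chemokine-high cells and 4.50-fold (2.37 to 9.63) in the other neutrophils. Cxcl2, whose own values chose the cells, was 0.856-fold (0.803 to 0.914) in chemokine-high cells by class totals but 1.10-fold (1.03 to 1.17) with TMM and 1.09-fold with DESeq2 scaling, so its direction depended on the scaling. In the other neutrophils it was 1.19-fold (1.13 to 1.25). Given the shared run of bases, part of a Cxcl2 or Cxcl3 count may belong to the other gene, and the effect of this on the age difference was not tested.

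The CC ligands were found in fewer cells and unevenly. Ccl4 stood at 354 CPM in young and 527 in aged chemokine-high cells, against 49.7 and 67.5 in the other neutrophils, and 20.8% and 27.9% of chemokine-high cells had a UMI of it. A few cells held much of it. The 5 richest cells had 56.9% of the Ccl4 UMIs of young and 36.4% of those of aged chemokine-high cells, and 1 aged cell had 53 of them. Ccl3 was lower still, with 12 UMIs in 3.77% of young and 22 UMIs in 5.07% of aged chemokine-high cells, or 65.3 and 41.4 CPM against 14.4 and 16.8. Only 4 cells, all aged, had UMIs of all 4 chemokines, 16 had 3 of them, 127 had 2, and 235 had 1.

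Because the same counts chose the cells, the UMIs of every cell were also split at random into 2 sets of about equal size, with cells chosen on 1 set and read in the other. The 4 chemokines together were then 5.41-fold higher (4.90 to 5.98) in the chosen than in the other young neutrophils and 3.66-fold (3.44 to 3.89) in the aged library. In the set that chose the cells the ratios were 7.22 and 5.66. Cxcl2 alone was 5.45-fold (4.91 to 6.04) and 3.52-fold (3.30 to 3.76), and Ccl4 was 4.62-fold (2.79 to 7.49) and 5.82-fold (4.59 to 7.34). Cxcl3 was 5.98-fold (0.928 to 30.7) in young and 5.41-fold (3.60 to 8.03) in aged cells. Ccl3 was 5.98-fold (1.79 to 18.1) and 1.76-fold (0.760 to 3.61). The intervals of young Cxcl3 and aged Ccl3 thus included 1. Of the chemokine-high cells, 79.2% of the young and 71.4% of the aged were chosen again on 1 set alone. For the 4 genes together, a difference thus remained in UMIs that had not chosen the cells, and it was smaller than in those that had.

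Irg1, the enzyme gene listed with the chemokines but not used to choose cells, was higher in these cells in the young library, with a ratio near 1 in the aged one. It stood at 103 CPM (19 UMIs) in young chemokine-high cells and at 42.2 in the other young neutrophils, a ratio of 2.45 (1.40 to 4.08). In the aged library the levels were 71.5 (38 UMIs) and 67.7, a ratio of 1.06 (0.735 to 1.48). In the split UMIs the ratios were 3.02 (1.33 to 6.27) and 1.00 (0.581 to 1.63). The difference between the libraries was not tested.

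**Figure D2:**
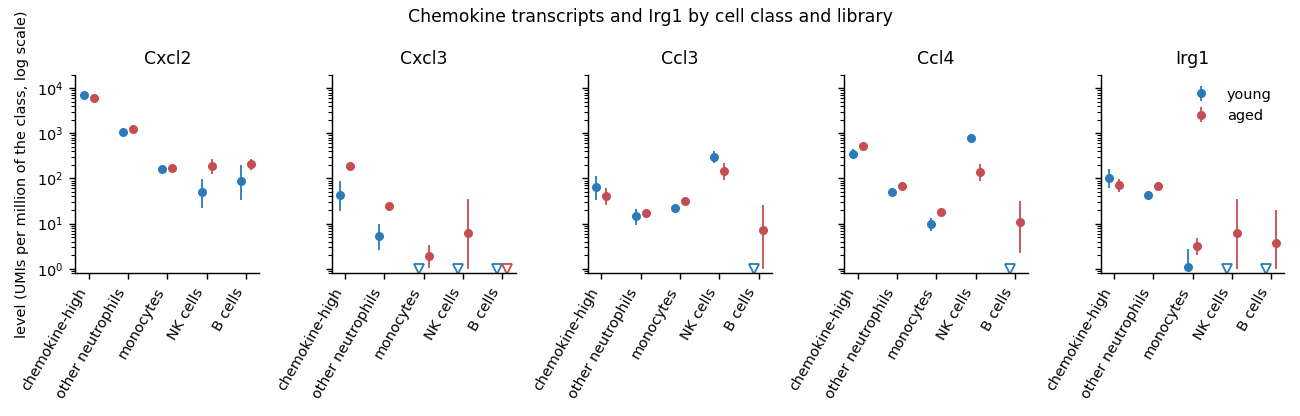
Level of each chemokine and of Irg1 (CPM, log scale) in chemokine-high cells, the other neutrophils and 3 other populations, by library, with exact Poisson 95% intervals and open triangles for 0 UMIs. Cxcl2 is highest in chemokine-high cells (7197 and 6164 CPM), whereas Ccl3 and young Ccl4 are higher in NK cells. The chemokine levels of chemokine-high cells follow from their choice, and over all neutrophils Cxcl2 stood at 1603 and 1717.5 CPM.

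Against the other populations, Cxcl2 was highest in neutrophils, whereas the CC ligands were as high or higher in NK cells than in neutrophils as a whole. Over all neutrophils Cxcl2 stood at 1603 CPM in young and 1717 in aged cells, against 159 and 168 in monocytes and 50.6 and 185 in NK cells. The other neutrophils, those not chosen, were therefore also above monocytes. Ccl4 in NK cells was 797 CPM in young and 142 in aged cells, against 76.9 and 111 over all neutrophils. Young NK cells exceeded young chemokine-high neutrophils and aged NK cells did not, but the level of chemokine-high cells follows from their choice.

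Beyond the chemokines, chemokine-high neutrophils carried more transcripts of the cystine transporter Slc7a11, of Il1b, of several AP-1 and immediate early genes, of Nfkbia and of Cd14, and fewer of granule proteins and S100a8. Of 4803 genes with at least 50 UMIs over all neutrophils, 26 (0.541%) were at least 2-fold higher and 56 (1.17%) at least 2-fold lower in chemokine-high cells of both libraries. These included the 4 chemokines, so 22 others were higher, and of the 26 only 8 had both intervals above 1, the 4 chemokines among them. None of the 56 lower genes had both intervals below 1. All 56 had at most 5 UMIs in young chemokine-high cells, and 29 had none in the chemokine-high cells of a library. By intervals alone, 73 genes (1.52%) lay above 1 and 17 (0.354%) below 1 in both libraries. Most differences were thus under 2-fold. Scaling by TMM factors instead of class totals moved every log2 ratio by -0.25 (young) and -0.17 (aged) and gave 11 higher and 94 lower genes, and DESeq2 size factors gave 13 and 76. All 20 genes named as higher and all 10 named as lower kept their direction in both libraries with either scaling. These 30 were taken by the interval bound nearest to 1, and all of them lie in the same cells and counts that the choice used, so their ratios are a description.

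**Figure D3:**
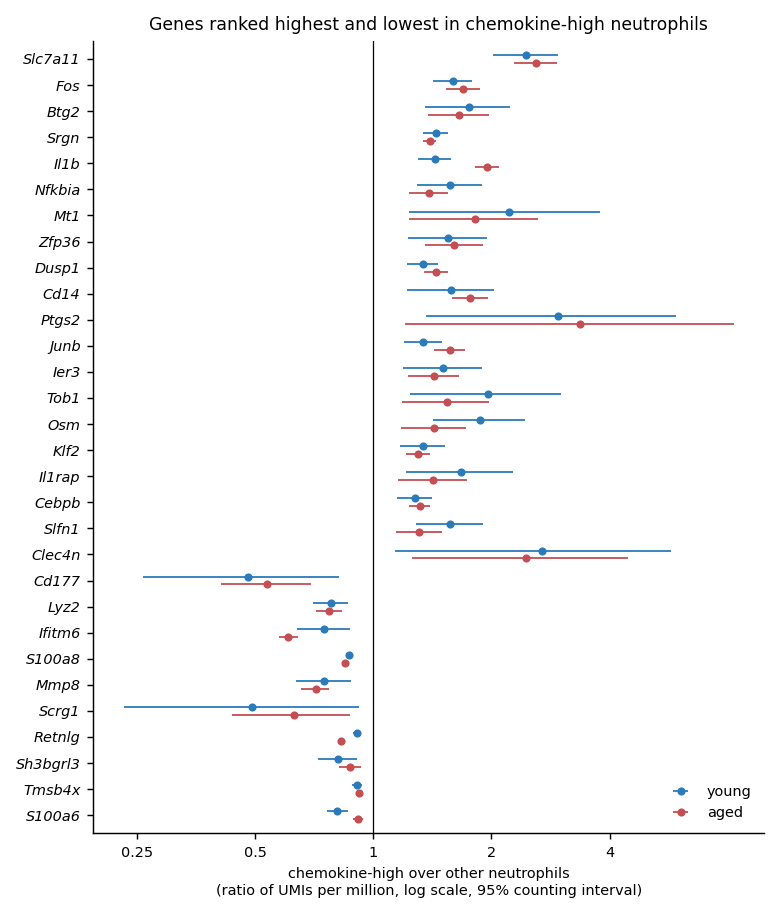
Ratio of chemokine-high over other neutrophils (log scale) for the 20 genes ranked highest and the 10 ranked lowest, by library, with exact conditional binomial 95% intervals. Slc7a11, at 2.45 in young and 2.60 in aged cells, ranks first by the interval bound nearest to 1. Ptgs2 (2.95 and 3.37) and, in young cells, Clec4n (2.70) have higher ratios with wider intervals. Most of the other genes lie between 0.5 and 2.

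Among inducible enzymes and transporters, Slc7a11 ranked first by the interval bound nearest to 1. It encodes the light chain of the antiporter that imports cystine for glutathione synthesis. Slc7a11 had 751 CPM in young chemokine-high cells and 306 in the other young neutrophils, and 602 and 232 in the aged library. The ratios were 2.45 (2.02 to 2.96) and 2.60 (2.29 to 2.94). In cells thinned to 1000 UMIs, 47.2% of young and 39.9% of aged chemokine-high cells had a Slc7a11 UMI, against 25.1% and 20.2% of the other neutrophils and, as background, 0% and 3.85% of NK and B cells. Unthinned shares were 66.0% and 58.0% against 36.4% and 34.1%, with 1.15% and 11.5% in NK and B cells, whose median depth was 2079 and 2847 UMIs. The transcript was thus found in more of the cells as well as at a higher level. Across all neutrophils it was 346 and 267 CPM, against 38.5 and 33.4 in monocytes.

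Ptgs2, the inducible cyclooxygenase of prostaglandin synthesis, stood at 59.9 against 20.3 CPM in young and at 13.2 against 3.91 in aged cells, ratios of 2.95 (1.36 to 5.89) and 3.37 (1.20 to 8.29). It rested on 11 and 7 UMIs in chemokine-high cells, and among neutrophils with no UMI of a monocyte, NK or B marker the ratios were 0.584 and 0.937. Of the 13 measured genes of this list, 4 were at least 1.5-fold higher in both libraries (Ptgs2, Slc7a11, Nampt and Sod2) and 1 (Nos2, at 0 UMIs in young chemokine-high cells) was lower, against 2 and 2 with TMM scaling. Over all 6579 genes with at least 20 UMIs, 4.47% were that much higher and 6.63% that much lower (150 and 661 genes with TMM scaling). The list's median log2 ratio was 0.19 in young and 0.09 in aged cells, against 0.03 and 0.06 over all genes. With TMM scaling it was -0.06 and -0.08, against -0.22 and -0.11 over all genes.

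Il1b, which encodes the pyrogenic cytokine interleukin 1 beta, was the most abundant transcript of the cytokine list in these cells. Its level was 2657 CPM in young chemokine-high cells and 1853 in the other young neutrophils, a ratio of 1.43 (1.30 to 1.58). In the aged library it was 1773 against 911, a ratio of 1.95 (1.81 to 2.09). The young cells had the higher level and the aged cells the larger ratio, and the intervals of the ratios did not overlap, though the difference was not tested. Osm, which encodes oncostatin M, stood at 359 against 192 CPM in young and 241 against 169 in aged cells, ratios of 1.87 (1.42 to 2.44) and 1.43 (1.18 to 1.72). Its young ratio was 0.959 when cells were chosen by Ccl3 and Ccl4 alone. Il1rn, the interleukin 1 receptor antagonist, had ratios of 1.49 (0.946 to 2.25) and 1.65 (1.20 to 2.24). Tnf was nearly absent, with 3 UMIs in the chemokine-high cells of each library. Of the 13 measured cytokine genes, 8 (61.5%) had ratios above 1 in both libraries and 2 (15.4%) below, where over all genes 28.9% were above and 23.4% below. With TMM scaling 6 and 3 of the list were, against 1062 and 2543 of all 6579 genes. The list's median log2 ratios were 0.57 and 0.48.

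Other chemokine ligands had no part in the choice of cells, so their ratios cannot be set against those of the 4 genes that chose them. Only 4 of 17 were measured. Ccl6, a CC chemokine that neutrophils express steadily, stood at 5352 against 5113 CPM in young and 6081 against 4726 in aged cells, ratios of 1.05 (0.979 to 1.12) and 1.29 (1.24 to 1.34). Ccl9 had ratios of 1.32 (0.771 to 2.13) and 1.33 (1.05 to 1.67). None of the 4 was 1.5-fold higher or lower in both libraries.

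AP-1 subunits and immediate early genes, which respond to signalling within minutes, were higher as a group. Of 21 measured, 16 (76.2%) had ratios above 1 in both libraries and 2 (9.52%) below, against 28.9% and 23.4% over all genes. At least 1.5-fold higher were 6 (28.6%) and none was 1.5-fold lower, against 4.47% and 6.63% over all genes. Both intervals lay above 1 in 8 of them and in 74 of all 6579 genes. The median log2 ratios were 0.43 and 0.53. With TMM scaling they were 0.19 and 0.36, with 13 genes above 1 and 2 below, 2 at least 1.5-fold higher and 5 with both intervals above 1. Over all 6579 genes the TMM medians were -0.22 and -0.11, with 1062 genes above 1 and 2543 below. Of all genes 150 were then at least 1.5-fold higher and 22 had both intervals above 1. Fos, an AP-1 subunit, stood at 1911 against 1198 CPM in young and 914 against 540 in aged cells, ratios of 1.60 (1.42 to 1.79) and 1.69 (1.54 to 1.87). Junb, its partner, was 1998 against 1493 and 1088 against 695, ratios of 1.34 and 1.56. Btg2, an antiproliferative immediate early gene, had ratios of 1.75 (1.35 to 2.23) and 1.66 (1.38 to 1.97). Dusp1, a phosphatase that switches MAP kinases off, had ratios of 1.34 and 1.45, and Ier3 had 1.51 and 1.43. Klf2, a transcription factor that restrains myeloid activation, had ratios of 1.34 and 1.30, but its young ratio was 0.913 when Ccl3 and Ccl4 alone chose the cells. Activators and brakes of the response thus stood higher together. Gadd45b was 2.19-fold (1.44 to 3.25) in young and 0.878-fold (0.546 to 1.35) in aged cells.

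In the NF-kappaB list the feedback inhibitor Nfkbia stood higher, and the subunits Rela and Nfkb1 could not be placed above or below 1. Nfkbia encodes the inhibitor IkappaB alpha, whose own transcription NF-kappaB drives. It stood at 691 against 440 CPM in young and 664 against 480 in aged cells, ratios of 1.57 (1.29 to 1.90) and 1.38 (1.24 to 1.55). Tnfaip2 had ratios of 1.28 in both libraries. These subunits had few UMIs and mixed values, with Rela at 0.691 (0.182 to 1.86) and 1.17 (0.621 to 2.05), and Nfkb1 at 1.80 (0.886 to 3.35) and 0.863 (0.461 to 1.49). Of 19 measured genes, 9 (47.4%) lay above 1 in both libraries and 2 (10.5%) below, against 28.9% and 23.4% over all genes. With TMM scaling 6 and 2 did, against 1062 and 2543 of all 6579 genes. Both intervals lay above 1 in 2 genes of the list (1 with TMM), against 74 of all genes (22 with TMM). The median log2 ratios were 0.35 and 0.24. At this depth most members of the list could not be placed above or below 1.

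Genes that destabilise inflammatory mRNA were among those with higher levels. Zfp36 encodes tristetraprolin, which binds AU-rich elements of such mRNAs. It stood at 468 against 301 CPM in young and 295 against 183 in aged cells, ratios of 1.55 (1.22 to 1.95) and 1.61 (1.35 to 1.91). Tob1, which promotes removal of the poly(A) tail, had ratios of 1.96 and 1.54, with both intervals above 1. Socs3, a cytokine signalling inhibitor, had 1.13 (0.875 to 1.44) and 1.54 (1.30 to 1.83). Of the 8 measured genes of mRNA decay and SOCS feedback, 5 (62.5%) were above 1 in both libraries and none below. Over all genes 28.9% were above and 23.4% below. With TMM scaling 3 and 1 of the list were, against 1062 and 2543 of all 6579 genes. The list's median log2 ratios were 0.68 and 0.30.

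Receptors that sense microbes and damage gave a more varied picture. Cd14, the co-receptor that hands lipopolysaccharide to Toll-like receptor 4, stood at 397 against 252 CPM in young and 788 against 447 in aged cells, ratios of 1.58 (1.22 to 2.02) and 1.77 (1.59 to 1.96). In cells thinned to 1000 UMIs, 27.4% of young and 47.8% of aged chemokine-high cells had a Cd14 UMI, against 19.7% and 31.8% of other neutrophils and 1.15% and 2.88% of NK and B cells. Unthinned, the shares were 36.8% and 64.9% in chemokine-high cells, 29.1% and 48.8% in the others, and 3.45% and 17.3% in NK and B cells. Trem1, an activating receptor, had ratios of 1.65 (1.14 to 2.33) and 1.38 (1.12 to 1.69). Clec4n (dectin-2, a receptor for fungal mannans) had 2.70 (1.14 to 5.74) and 2.45 (1.26 to 4.46) from 9 and 14 UMIs, and its young ratio was 0.949 in the split UMIs and 0.928 with the same lowest depth in both libraries. Tlr2 had 0.999 (0.465 to 1.91) and 1.05 (0.733 to 1.46). Of the 23 measured genes of the list 11 (47.8%) were above 1 in both libraries and 5 (21.7%) below, against 28.9% and 23.4% over all genes. With TMM scaling 9 and 8 were, against 1062 and 2543 of all 6579 genes. The aged median log2 ratio was 0.08, against 0.06 over all genes, and -0.09 with TMM scaling, against -0.11 over all genes. The young median was 0.35, against 0.03 over all genes.

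The receptors through which neutrophils follow attractants differed little, and their direction depended on the scaling. Cxcr2, the receptor for Cxcl2 itself, stood at 849 against 817 CPM in young and 901 against 737 in aged cells, ratios of 1.04 (0.876 to 1.23) and 1.22 (1.11 to 1.35). Ccr1, a receptor for Ccl3, had 1.25 in both libraries (1.03 to 1.52 and 1.11 to 1.40), and C5ar1, the complement C5a receptor, 1.42 (1.17 to 1.73) and 1.13 (1.02 to 1.26). With TMM scaling the young ratio of Cxcr2 was 0.876 (0.739 to 1.03) and the aged one 1.09 (0.986 to 1.20). By class totals 7 of 11 measured attractant receptors (63.6%) were above 1 in both libraries and none below, against 28.9% and 23.4% over all genes. With TMM 4 and 3 were, against 1062 and 2543 of all 6579 genes. Both intervals lay above 1 in 2 of the receptors by class totals and in none with TMM, against 74 and 22 of all genes. Among cytokine receptors, Il1rap, the shared signalling chain of the interleukin 1 receptor, had 1.67 (1.21 to 2.26) and 1.42 (1.16 to 1.73), and Il1r2, the decoy receptor that binds interleukin 1 without signalling, had 1.24 in both libraries (1.02 to 1.49 and 1.15 to 1.33).

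Granule protein transcripts, which are made early in neutrophil development, were lower as a group. Of 23 measured, 15 (65.2%) had ratios below 1 in both libraries and 1 (4.35%) above, against 23.4% and 28.9% over all genes. Both intervals lay below 1 in 7 of them and in 17 of all 6579 genes. The median log2 ratios were -0.14 in young and -0.37 in aged cells, and -0.39 and -0.54 with TMM scaling, where 17 were below 1 and none above. Over all 6579 genes the TMM medians were -0.22 and -0.11, with 2543 genes below 1 and 1062 above. Cd177, a surface partner of proteinase 3, stood at 76.2 against 159 CPM in young and 117 against 217 in aged cells, ratios of 0.479 (0.259 to 0.816) and 0.537 (0.409 to 0.694). Mmp8, neutrophil collagenase, had 0.750 and 0.713, and Lyz2, lysozyme, 0.780 and 0.772. Ngp, a specific granule protein, was 441 against 577 CPM in young cells (0.764, 0.602 to 0.958) and 365 against 1088 in aged ones (0.336, 0.289 to 0.387). Camp, the cathelicidin, had 2 UMIs in young chemokine-high cells, and in the aged library its ratio was 0.251 (0.133 to 0.433). Ngp was thus further below 1 in the aged library, where the other neutrophils held more of it. Camp had too few UMIs in young chemokine-high cells for its ratios to be compared between the libraries.

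The alarmin S100a8 and the resistin relative Retnlg, which are among the most abundant neutrophil transcripts, were slightly lower. S100a8 made up a median 14.7% of UMIs in young chemokine-high cells and 17.2% in other young neutrophils, and 17.8% and 20.8% in the aged library (at 1000 UMIs per cell). Retnlg had ratios of 0.908 (0.887 to 0.929) and 0.826 (0.816 to 0.837), though 1.01 in the young library among neutrophils with no UMI of another lineage's marker. Ifitm6, an interferon-induced membrane protein gene of this lineage, stood at 958 against 1278 CPM in young and 2369 against 3896 in aged cells (0.749 and 0.608). Scrg1 had 0.490 (0.231 to 0.919) and 0.627 (0.437 to 0.874), but its young ratio was 1.67 when Ccl3 and Ccl4 chose the cells. Sh3bgrl3, Tmsb4x and S100a6 were the other genes named as lower, with ratios between 0.810 and 0.919.

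Genes of mature blood neutrophils were mostly above 1 by class totals, although the young median was below 1 with TMM scaling. Of 23 measured, 16 were above 1 in both libraries and 3 below, and 9 had both intervals above 1, whereas with TMM 8 were above and 7 below, with 1 pair of intervals on each side. The median log2 ratios were 0.11 and 0.34, and the young one was below 0 with TMM scaling (-0.13, against 0.17 in the aged library). Srgn, the proteoglycan core protein serglycin, stood at 4764 against 3305 CPM in young and 5573 against 4000 in aged cells, ratios of 1.44 (1.34 to 1.55) and 1.39 (1.34 to 1.45). Cebpb, a transcription factor of emergency granulopoiesis, had 1.27 and 1.31. G0s2 had 1.28 (1.08 to 1.52) and 1.62 (1.48 to 1.77). No gene of the list was 1.5-fold higher in both libraries.

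Interferon-stimulated genes had mostly small differences. Of 36 measured, 20 (55.6%) were above 1 in both libraries and 5 (13.9%) below, against 28.9% and 23.4% over all genes. With TMM scaling 13 and 10 were, against 1062 and 2543 of all 6579 genes. The median log2 ratios were 0.21 and 0.27, against 0.03 and 0.06 over all genes. With TMM scaling the young one was -0.03, against -0.22 over all genes. At least 1.5-fold higher in both libraries were 4 of them (11.1%), and 1 (2.78%) was that much lower. Over all genes 4.47% and 6.63% were. With TMM scaling the list had 3 and 2, against 150 and 661 of all 6579 genes. Ifit3 was higher at 3.40 (0.966 to 9.83) and 2.06 (0.698 to 5.07), from 5 and 6 UMIs. Irgm1 was lower at 0.463 and 0.275, with 1 UMI in chemokine-high cells of each library. Slfn1 had 1.57 (1.29 to 1.91) and 1.31 (1.14 to 1.49), and Isg15 had 1.65 (1.09 to 2.41) and 1.14 (0.825 to 1.55). Mt1, the metal-binding metallothionein, had 2.22 (1.23 to 3.79) and 1.82 (1.23 to 2.62), with a young ratio of 0.794 under choice by Ccl3 and Ccl4. Of the 83 measured ribosomal protein genes none was 1.5-fold higher or lower in both libraries. Of the 30 measured glycolysis and hypoxia genes 1 (3.33%) was that much higher (Slc2a1, the glucose transporter, 1.77 and 1.74). Another (3.33%) was that much lower (P4ha1, with 0 UMIs in young and 1 in aged chemokine-high cells). Both shares lay below those over all genes, and no gene of this list had both intervals above 1 or both below. Of 18 BCL2 family and survival genes, Bcl2l11 (3.40 and 1.55) was 1.5-fold higher in both libraries and Ripk3, at 0 and 1 UMIs, 1.5-fold lower. At 5.56% each, these shares were near those over all genes. The antiapoptotic Mcl1 had 0.977 (0.803 to 1.18) and 1.19 (1.06 to 1.33).

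**Figure D4:**
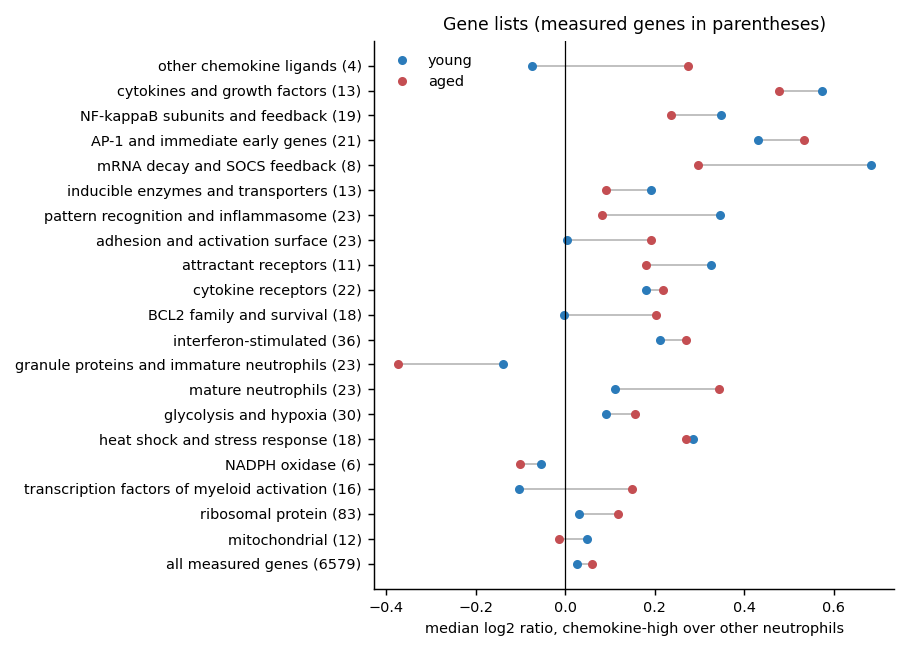
Median log2 ratio of chemokine-high over other neutrophils (x axis) for each gene list, by library, with the number of measured genes in parentheses. AP-1 and immediate early genes (0.43 and 0.53) and cytokines (0.57 and 0.48) lie right of all measured genes (0.03 and 0.06), and granule proteins (-0.14 and -0.37) lie left.

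Slc7a11, Il1b and Cd14 differed between neutrophils well below the limit, with levels that climbed over several classes of chemokine share. Neutrophils were put into a class with no chemokine UMI and 5 classes of equal size over both libraries with rising share, of which only the highest held chemokine-high cells (106 of 166 young and 276 of 437 aged cells). Slc7a11 stood at 242 CPM in young cells with no chemokine UMI, at 192, 312, 378 and 440 in the next 4 classes and at 627 in the highest. In the aged library the levels were 168, 167, 221, 255, 314 and 511. Il1b in aged neutrophils went from 678 through 708, 770, 995 and 1228 to 1670 CPM, and Cd14 from 319 through 382, 408, 499 and 564 to 737. Each of these aged series was higher in every class from the second class with chemokine UMIs on than in the one before. In young neutrophils Il1b was 1929 with no chemokine UMI, lower (1583 to 1728) in the 3 classes after it, and 2219 and 2430 in the highest 2. Ngp in aged cells was 1518 with no chemokine UMI, 1699 in the lowest class and 392 in the highest. In young cells Ngp was 376 with no chemokine UMI and then 726, 701, 668, 624 and 489 over the 5 classes. Ngp was thus lowest in the highest of the 5 classes in both libraries, and the classes with no chemokine UMI differed, low in young and high in aged cells.

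**Figure D5:**
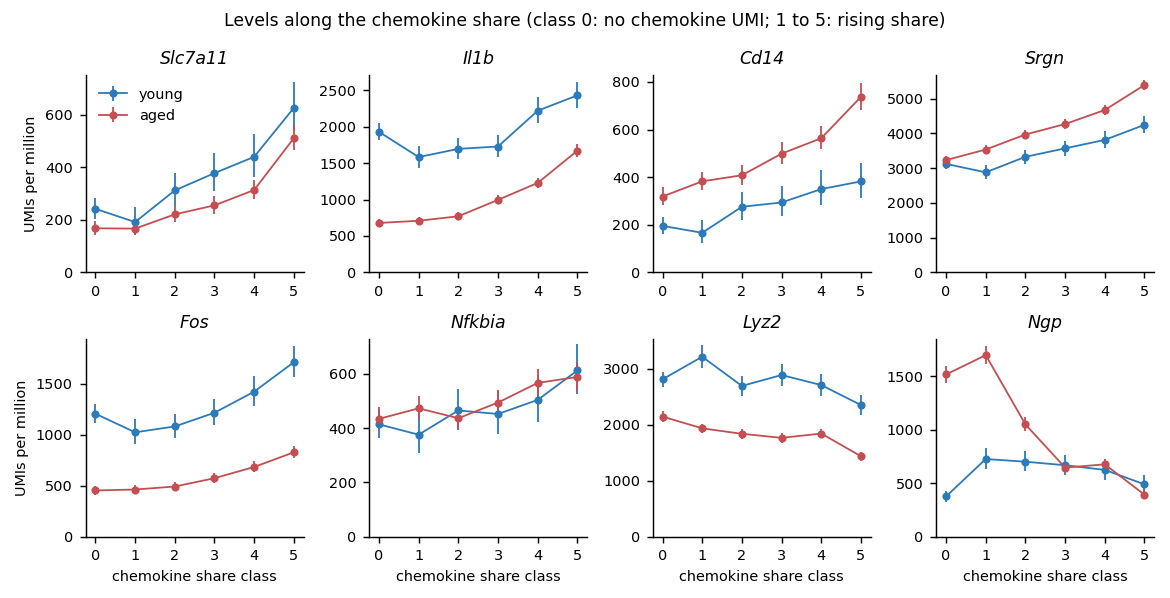
Level of 8 genes (CPM, y axis from 0) in neutrophils with no chemokine UMI (class 0) and in 5 classes of rising chemokine share, by library, with exact Poisson 95% intervals. Slc7a11 climbs from 242 to 627 in young and from 168 to 511 in aged cells, and Ngp goes over the 5 classes from 726 to 489 in young and from 1699 to 392 in aged cells.

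Within the chosen cells, those with a Ccl4 UMI carried more Il1b than those with none. Il1b stood at 3435 CPM (2872 to 4076) in 22 young cells with Ccl4 and 2453 (2205 to 2721) in the other 84. In the aged library it was 2308 (2074 to 2562) in 77 cells and 1556 (1433 to 1687) in 199. Nfkbia was 850 (710 to 1009) against 589 (514 to 672) in the aged library and 787 (531 to 1123) against 666 (540 to 813) in the young one, where the intervals overlapped. Slc7a11 and Cd14 had overlapping intervals in both libraries, so no difference in them was detectable at this depth. Median depth was 1681 against 1563.5 UMIs in young and 1737 against 1772 in aged cells.

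Aged chemokine-high cells had more Ifitm6, Il1r2 and Cd14 and less Fos and Junb than young ones, and the other neutrophils differed in the same direction in these genes. Of 1143 genes with at least 50 UMIs over the chemokine-high cells, 13 (1.14%) were at least 2-fold higher and 53 (4.64%) at least 2-fold lower in the aged cells, and in the other neutrophils 10 (0.875%) and 34 (2.97%) of the same genes were. Of the 13 higher genes 8 were also 2-fold higher in the other neutrophils, and of the 53 lower genes 21 were 2-fold lower there. With TMM factors the counts were 50 higher and 16 lower, and with DESeq2 size factors 47 and 16, because these scalings moved every log2 ratio by 0.36 and 0.35. All 16 genes named by rank lay on the same side of 1 in the other neutrophils, except Atp6v0d1 with TMM (1.05) and DESeq2 scaling (1.04). Age and library cannot be told apart here.

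Higher in aged chemokine-high cells were Ifitm6 (958 CPM in young and 2369 in aged cells, 2.47-fold, 2.11 to 2.91), Il1r2 (691 and 1462, 2.11-fold, 1.75 to 2.57) and Cd14 (397 and 788, 1.98-fold, 1.54 to 2.58). Ltb4r1, the leukotriene B4 receptor, was 2.52-fold higher (1.63 to 4.09). Thbs1, thrombospondin 1, had 1 UMI in young and 51 in aged cells, a ratio of 17.6 with an interval from 3.02 to 710, and was 2.88-fold higher in the other neutrophils. Serpinb1a, Hist2h2aa1 and Tagln2 completed the list at 3.87-fold, 4.42-fold and 1.86-fold. Lower were the AP-1 genes Fos (1911 and 914, 0.479-fold, 0.416 to 0.551) and Junb (1998 and 1088, 0.544-fold, 0.477 to 0.622), with 0.451 and 0.466 in the other neutrophils. Gadd45b was 0.256-fold (0.143 to 0.454) in chemokine-high cells and 0.641-fold in the others. Wdr89, Rassf3, Lst1, Atp5k and Atp6v0d1 lay between 0.212 and 0.445.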

How the data were processed

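Single-cell RNA sequencing (10x Genomics 3′ v2) had been done on sorted blood myeloid cells, with 1 library per age. The authors deposited a table of raw UMI counts per gene and cell, with their population and age label for each cell. Cell Ranger 2.1.1 and the build mm10 are named in the submitters' processing notes. Filters applied by the authors are not stated in the labels, and the shallowest cell had 1260 UMIs (young) or 1451 (aged).

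Counts were summed over cells of a class and given as CPM of that class. Ratios have exact conditional binomial intervals, sums exact Poisson intervals and shares Clopper-Pearson intervals, all at 95% and all covering counting error only. Library totals and medians are given in the text above. With 1 library per age there was no test and no p-value. A gene needed 50 UMIs over the neutrophils to be counted or ranked, and 20 to count in a list. The 20 higher and 10 lower genes named, and 8 and 8 between ages, were ranked by the interval bound nearest to 1, leaving out ribosomal protein, mitochondrial, globin, sex-linked, immunoglobulin, T cell receptor, pseudogene and unnamed gene models. Genes of a list were named besides. The members, the named-gene rule and all gene lists were chosen with earlier results of these data known.

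The lists were other chemokine ligands, cytokines, NF-kappaB, AP-1 and immediate early genes, mRNA decay and SOCS, inducible enzymes, pattern recognition, adhesion, attractant receptors, cytokine receptors, BCL2 family, interferon-stimulated, granule, mature neutrophil, glycolysis and hypoxia, heat shock, NADPH oxidase, transcription factor, ribosomal protein and mitochondrial genes. Marker lists covered monocytes, dendritic, NK, B, T, basophil or mast, eosinophil, platelet, erythroid and neutrophil cells.

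Doublets were not removed in the values given. Scrublet (scanpy 1.11.5) called 4 young and 0 aged cells by its own threshold and was not used that way, and removal of the highest scores at the expected rate was an alternative. Other alternatives changed the share of cells chosen, the genes of the score, the depth, the scaling (edgeR 4.0.16 TMM factors and DESeq2 1.42.0 size factors, used for scaling only) and the count minimum. Python 3.11.15, numpy 2.4.6, pandas 2.3.3, scipy 1.17.1, matplotlib 3.10.9 and R 4.3.3 were used, and the ratio and interval code was tested on simulated data. Promoter sequences are from RefSeq (GRCm38.p6).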

Additional observations from a re-analysis of the deposited data

Results flagged for a closer look

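Fpr2, a formyl peptide receptor, lay on opposite sides of 1 in the libraries. Its ratio of chemokine-high over other neutrophils was 1.31 (1.03 to 1.63) in the young library and 0.880 (0.772 to 0.999) in the aged library. The difference between the libraries was not tested, and the intervals cover counting error only.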

How the results depend on the processing

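The share of neutrophils chosen was 5.42% (young) and 4.81% (aged) with the top 5 percent, 17.5% and 21.1% with the top 20 percent, and 11.1% in the young library with the score on thinned cells. The counts of genes 2-fold higher and lower in chemokine-high cells (26 and 56) were 71 and 150 with the top 5 percent, 10 and 20 with the top 20 percent, 11 and 94 with TMM factors, 77 and 231 with at least 20 UMIs, 4 and 1 with at least 200 UMIs, and 199 and 29 with no filter beyond 1 UMI in each class compared. The higher count was 13 with split UMIs and 13 with DESeq2 size factors. The counts higher and lower in aged chemokine-high cells (13 and 53) were 6 and 19 with split UMIs, 26 and 31 with the same lowest depth, 50 and 16 with TMM, 47 and 16 with DESeq2, 76 and 188 with 20 UMIs, 2 and 6 with 200 UMIs and 389 and 1487 with no filter. The lower count was 19 with the top 5 percent, 17 without cells with other lineages' marker UMIs and 27 with cells thinned before summing, and the higher count 22 with the top 20 percent. Fewer genes or cells enter under the stricter filters and smaller classes, and the cause of the other changes was not tested.

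Of the values of single genes, 1115 stayed on their side of 1 within counting error, 200 moved further and 9 reversed. With the score of Ccl3 and Ccl4 only, young ratios were 0.794 for Mt1, 0.959 for Osm, 0.913 for Klf2 and 1.67 for Scrg1. Clec4n (young) was 0.949 with split UMIs and 0.928 with the same lowest depth. Without cells with other lineages' marker UMIs, Ptgs2 was 0.584 (young) and 0.937 (aged) and Retnlg 1.01 (young). A score of Cxcl2 alone, and leaving out the 10 cells with the highest chemokine share of each library, were added after the data had been seen and moved none of these counts by more than 1.5-fold. No paired analysis was possible because there was 1 library per age and no replicate. Genes with few UMIs in the 106 young chemokine-high cells limit most lists.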

Other observations

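The remaining lists are given by class totals, with TMM scaling in parentheses. Of 6 measured NADPH oxidase genes 1 was above 1 in both libraries and 3 below (0 and 5), with median log2 ratios of -0.06 and -0.10. Of 18 heat shock and stress genes 9 were above 1 and 1 below (4 and 2), with medians of 0.29 and 0.27. Of 23 adhesion and activation genes 8 were above 1 and 1 below (3 and 9), with medians of 0.00 and 0.19. Of 16 transcription factors 6 were above 1 and 6 below (2 and 7), and of 12 mitochondrial genes 2 and 2 (1 and 8). Over all 6579 genes 28.9% were above 1 and 23.4% below by class totals (1900 and 1537 genes). With TMM scaling 1062 of the 6579 genes were above 1 and 2543 below, so all genes moved down with this scaling.

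The stefin A genes, cysteine protease inhibitors of neutrophils that lie in a cluster of near-identical copies and so share reads, gave uneven values. Stfa1 had a ratio of 0.364 (0.192 to 0.630) in young and 1.31 (1.05 to 1.63) in aged cells, while Stfa2l1 had 0.723 and 0.992. The difference was not tested.

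In the aged library, 44 cells carry the authors' mast cell label. Ccl3 stood at 6400 and Ccl4 at 3100 CPM in them, above the chemokine-high neutrophils (41.4 and 527), whereas Cxcl2 was 420 against 6164. The levels of chemokine-high neutrophils follow from their choice. Over all aged neutrophils Ccl3 stood at 19.1, Ccl4 at 111 and Cxcl2 at 1717.5 CPM.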
